A study of Mus musculus with 4 samples.

Results

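The livers of AApoAII amyloidosis mice, with and without interval training (IT), were examined for 10 secreted proteins of the hepatokine and activin families. The genes were Fgf21, Gdf15, Fst, Inhba, Inhbb, Inhbc, Inhbe, Ahsg, Fetub and Lect2, chosen by name from the 35275 genes of the read count table, and all 10 were found. Liver RNA was sequenced from female mice in 4 groups. Mice given vehicle either stayed sedentary (VS) or ran IT (VI), and mice given fibrils likewise stayed sedentary (FS) or ran IT (FI). Every group carried the amyloidogenic Apoa2c allele, given in the sample labels as Apoa2c congenic mice of strain AKR/J and in the methods of the study as R1.P1-Apoa2c on a SAMR1 background. The fibril groups had received AApoAII fibrils in a tail vein when training began, the vehicle groups had received the carrier solution alone, and IT was 16 weeks of treadmill running in alternating slow and fast bouts. The study reported less liver amyloid in trained than in sedentary fibril mice, so FI versus FS joins training with a lower amyloid load. Livers were taken at 26 weeks of age, and each library came from the mixed tissue of 4 mice, which makes 4 libraries from 16 animals. No value therefore has an error between mice, and the intervals given below cover counting error only.

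Hepatokines are proteins that the liver releases into blood to act on other organs. FGF21 signals through FGF receptors with the co-receptor beta-Klotho and is induced in liver by fasting, through the nuclear receptor PPAR alpha, and by the ATF4 branch of the stress response. GDF15 is a stress-induced cytokine that lowers food intake through a receptor in the brainstem. The inhibin beta subunits form dimeric ligands of the TGF-beta family, the activins. The betaA and betaB subunits are made in many tissues, whereas betaC (Inhbc) and betaE (Inhbe) are made almost entirely by hepatocytes. Follistatin, the product of Fst, binds activins and keeps them from their receptors. Fetuin-A (Ahsg) and fetuin-B (Fetub) are abundant plasma proteins of the cystatin superfamily, and LECT2 is a liver-made plasma protein that itself forms amyloid in some patients.

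The upstream sequences of the genes that the results turn on are shown because Fgf21 and Inhbe share a short element there. Both were lower in fibril than in vehicle livers at the same training state, though Inhbe was higher in FS than in VI. Other members lower in both of these comparisons, such as Inhbc and Lect2, have no match to the element. The sequences shown are the 250 bases before the RefSeq start (GRCm38.p6), read 5′ to 3′ on the strand of the gene. For all of those shown this is the minus strand. Fgf21 lies at chr7:45615491-45615740, Inhbe at chr10:127351849-127352098, Inhbc at chr10:127370549-127370798 and Inhbb at chr1:119422249-119422498. Capitals mark matches to the C/EBP-ATF response element bound by ATF4 (TGATGNAAN, here on the opposite strand) and, in Fgf21, also to the E-box CACGTG.
Fgf21: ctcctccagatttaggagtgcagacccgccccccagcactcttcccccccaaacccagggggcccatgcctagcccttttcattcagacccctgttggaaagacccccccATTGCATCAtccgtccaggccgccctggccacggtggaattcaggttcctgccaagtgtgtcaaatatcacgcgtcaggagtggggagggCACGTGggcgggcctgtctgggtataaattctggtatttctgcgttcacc
Inhbe: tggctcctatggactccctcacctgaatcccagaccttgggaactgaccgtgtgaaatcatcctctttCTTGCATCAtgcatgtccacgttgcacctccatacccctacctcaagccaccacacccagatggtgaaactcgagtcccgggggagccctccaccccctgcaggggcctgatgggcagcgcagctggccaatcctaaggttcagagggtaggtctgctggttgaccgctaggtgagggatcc
Inhbc: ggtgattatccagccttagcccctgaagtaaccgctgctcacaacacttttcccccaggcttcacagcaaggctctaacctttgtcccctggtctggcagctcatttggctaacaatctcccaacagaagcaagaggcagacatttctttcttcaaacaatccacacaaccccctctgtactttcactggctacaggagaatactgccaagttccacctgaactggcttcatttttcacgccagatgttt
Inhbb: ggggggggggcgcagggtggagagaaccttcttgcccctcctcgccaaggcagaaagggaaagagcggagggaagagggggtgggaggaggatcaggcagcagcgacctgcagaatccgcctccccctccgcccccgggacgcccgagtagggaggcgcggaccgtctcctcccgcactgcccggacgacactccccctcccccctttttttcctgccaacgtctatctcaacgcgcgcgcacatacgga
Both strands were searched over 250 bases before and 50 after the start. The C/EBP-ATF element was found in 2 of the 9 genes that had a RefSeq promoter entry, which had 11 promoters together. It lay at −140 to −132 in Fgf21 and at −182 to −174 in Inhbe. Counted per promoter, 3.95% of all 32851 promoters had it. Fst had no entry. The E-box was found in Fgf21 at −50 to −45 and in 1 of the 2 Gdf15 promoters at −83 to −78, against 7.15% of promoters. No match overlapped another, and neither the cyclic AMP response element TGACGTCA (1.79% of promoters) nor the ER stress element, CCAAT and CCACG with 9 bases between them (0.119%), was found in a member. A match is a stretch of letters and was not tested as a binding site.

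Total counts were between 23442935 and 28814802 per library, and a count of 0 allowed up to 3 counts, 0.102 to 0.127 CPM (counts scaled to a library of 1e+06, with TMM factors). All 12 hepatocyte markers were expressed, with Alb at 12.1% to 13.6% of counts. Skeletal muscle markers (12 of 13 at 1 CPM or more in a library) summed to 79.9, 10.4, 1.02 and 0.827 CPM in VS, VI, FS and FI, with Acta1, Mb and Ckm at 0 in FI. The 10 Kupffer cell markers summed to 325, 391, 503 and 495 CPM in VS, VI, FS and FI. The neutrophil markers (3 of 10 at 1 CPM or more) summed to 2.63, 3.53, 18.4 and 13.8 CPM. Most of this in FS and FI was Prtn3 (0.593, 1.11, 13.1 and 10.1 CPM), while Elane had 3, 0, 5 and 0 counts and Ctsg 0 throughout. Sums were 23.2, 13.4, 15.2 and 12.8 CPM for pancreas (mostly Cela1) and 23.3, 13.1, 10.5 and 10.3 CPM for adipose tissue (nearly all Adrb3, with Lep at 0). Cela1 and Adrb3 were highest in VS, as Fgf21, Inhbc, Inhbe and Lect2 were. Of the 2 pancreas markers at 1 CPM or more, 1 was past 2-fold higher in FS than in VS. Stellate cell markers summed to 259 to 303 CPM, endothelial markers to 256 to 311 and ductal markers to 21.6 to 32.7. The part of these cells in the values below was not tested, and in bulk tissue fewer cells of a type cannot be told apart from less RNA per cell.

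All 10 genes were detected in every library, at levels that spanned several orders of magnitude. On the length-corrected FPKM scale the order in VS was Ahsg (9270), Fetub (471), Lect2 (131), Inhbc (57.5), Inhbe (19.8), Gdf15 (8.39), Fgf21 (7.89), Fst (1.28), Inhbb (0.992) and Inhba (0.719). In FI, Fst (7.45 FPKM) stood close to Gdf15 (7.86) and above Inhbe (5.89), while Fgf21 (2.21) was below Inhbb (2.65).

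**Figure D1:**
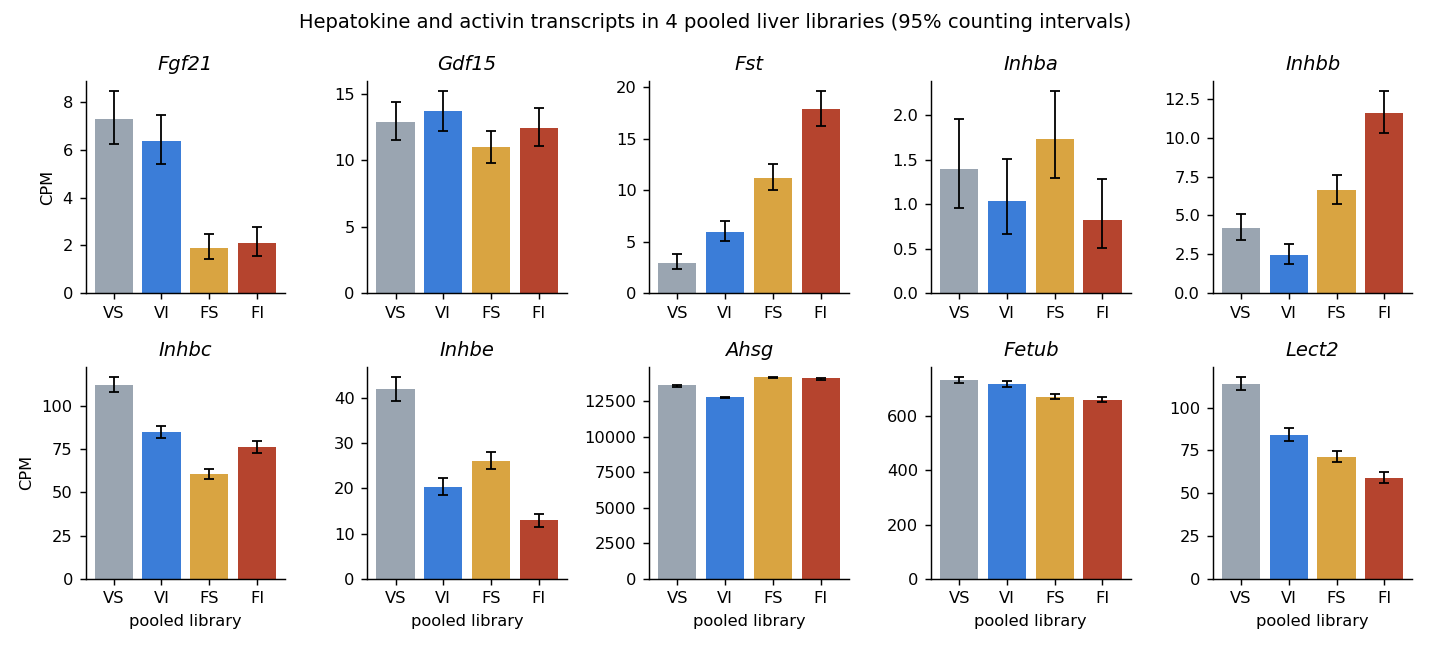
TMM-scaled CPM of each of the 10 genes (y axis, linear from 0, own scale per panel) in the VS, VI, FS and FI pooled libraries (x axis), with bars for the level and whiskers for exact Poisson 95% counting intervals. Fst is lowest in VS (2.96 CPM) and highest in FI (17.9 CPM), Inhbe runs from 42 to 12.9 CPM, and Fgf21 is at 1.9 and 2.11 CPM in both fibril libraries.

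Fgf21 (ENSMUSG00000030827, chr7:45613907-45615490) was low in both libraries with amyloid, whether the mice had trained or not. It had 172, 155, 56 and 51 counts in the VS, VI, FS and FI libraries, or 7.28 (95% interval 6.24 to 8.46), 6.36 (5.4 to 7.45), 1.9 (1.43 to 2.46) and 2.11 (1.57 to 2.77) CPM. Both vehicle libraries lay above both fibril libraries, and within each pair the intervals overlapped. FS was 3.81-fold below VS (log2 ratio −1.93, 95% interval −2.40 to −1.50), and FI was 3-fold below VI (−1.58, −2.08 to −1.13). The IT ratios were −0.19 (−0.52 to 0.13) in vehicle and 0.15 (−0.42 to 0.73) in fibril livers, and both intervals included 0. In an additive model of amyloidosis and IT over all 4 libraries, Fgf21 fell by 1.77 on the log2 scale with amyloidosis (SE 0.23, adjusted p = 0.0062 by edgeR's quasi-likelihood test), and its IT term was −0.05 (SE 0.23, adjusted p = 0.95). In a fit of amyloidosis alone, where the training difference counts as error, the adjusted p was 0.071. The p-values of the additive model set each term against an error estimated from how far the 4 pools depart from additivity. That error has 1 residual degree of freedom, draws on all genes, and does not hold the spread between mice.

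Gdf15 (ENSMUSG00000038508, chr8:70629393-70632456) had a narrow range. Its counts of 304, 333, 324 and 301 in VS, VI, FS and FI came to 12.9, 13.7, 11 and 12.4 CPM. The highest library exceeded the lowest 1.25-fold. All 4 log2 ratios lay between −0.23 and 0.18, and neither the IT term (0.13, SE 0.15, adjusted p = 0.74) nor the amyloidosis term (−0.19, SE 0.15, adjusted p = 0.51) passed the test.

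Fst (ENSMUSG00000021765, chr13:114452262-114458730), the activin antagonist, rose with amyloidosis and was also higher in each trained library than in its sedentary counterpart. The VS, VI, FS and FI libraries held 70, 145, 331 and 432 counts, which gave 2.96 (2.31 to 3.75), 5.95 (5.02 to 7), 11.2 (10 to 12.5) and 17.9 (16.2 to 19.6) CPM. No pair of these intervals overlapped. Fibril livers exceeded vehicle livers 3.76-fold without training (log2 ratio 1.91, 1.54 to 2.31) and 2.99-fold with it (1.58, 1.31 to 1.87). Trained livers exceeded sedentary ones 2-fold in vehicle mice (log2 ratio 1, 0.58 to 1.44) and 1.59-fold in fibril mice (0.67, 0.46 to 0.88), and FI stood 5.99-fold above VS (2.58, 2.22 to 2.98). The amyloidosis term was 1.73 (SE 0.18, adjusted p = 0.0031), rank 23 of 11760 genes by p, and with this factor fitted alone the adjusted p was 0.17. The IT term of 0.81 (SE 0.17) had an adjusted p of 0.07 and did not pass, although it did with DESeq2 size factors (adjusted p = 0.045) or without the filter on low counts (adjusted p = 0.0012). Muscle markers were highest in VS, where Fst was lowest. The Kupffer marker sum and the neutrophil marker sum, the latter mostly Prtn3 there, were higher in the fibril libraries, as Fst was.

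Inhbe (ENSMUSG00000047492, chr10:127349402-127351772), the activin E subunit, was the 1 member that passed the test for IT: it fell with training, by about the same factor in both backgrounds, and also with amyloidosis. Counts were 992, 495, 769 and 312 in VS, VI, FS and FI, or 42 (39.4 to 44.7), 20.3 (18.6 to 22.2), 26 (24.2 to 28) and 12.9 (11.5 to 14.4) CPM. The intervals of the 4 libraries were all separate, with the trained library the lower of each pair. Trained livers were 2.07-fold lower in vehicle mice (log2 ratio −1.05, −1.21 to −0.89) and 2.02-fold lower in fibril mice (−1.01, −1.21 to −0.82), and these ratios differed by 0.03 (−0.21 to 0.28). Muscle markers summed to 79.9 and 10.4 CPM in VS and VI and to 1.02 and 0.827 CPM in FS and FI. The part of muscle tissue in the Inhbe values was not tested. The additive model gave an IT term of −1.03 (SE 0.13, adjusted p = 0.0088) and an amyloidosis term of −0.68 (SE 0.13, adjusted p = 0.021). Neither call held with its factor fitted alone (adjusted p = 0.9 and 0.62). FI was at 0.307 of VS (log2 ratio −1.70, −1.89 to −1.52).

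Inhbc (ENSMUSG00000025405, chr10:127356328-127370544), the activin C subunit, lies on the same strand 4555 bases from Inhbe but had another pattern. It was highest in VS and lowest in FS, with 2651, 2069, 1790 and 1843 counts in VS, VI, FS and FI, or 112 (108 to 117), 84.9 (81.3 to 88.7), 60.6 (57.9 to 63.5) and 76.2 (72.7 to 79.7) CPM. The order was VS, VI, FI, FS, and no neighbouring intervals overlapped. Training went with a lower level in vehicle livers (log2 ratio −0.40, −0.49 to −0.32) and a higher one in fibril livers (0.33, 0.23 to 0.42), a difference of 0.73 (0.61 to 0.86) that was not tested between mice. Inhbc was 1.85-fold lower in FS than in VS (−0.89, −0.98 to −0.80) and 1.11-fold lower in FI than in VI (−0.16, −0.25 to −0.07). Neither additive term passed the test (amyloidosis −0.53, SE 0.18, adjusted p = 0.15).

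Inhbb (ENSMUSG00000037035, chr1:119415465-119422248), the activin B subunit, was also opposite between backgrounds. In the order VS, VI, FS and FI, counts of 99, 60, 195 and 280 gave 4.19 (3.41 to 5.1), 2.46 (1.88 to 3.17), 6.61 (5.71 to 7.6) and 11.6 (10.3 to 13) CPM. Every interval was separate, with VI the lowest library and FI the highest. The IT ratio was −0.76 (−1.25 to −0.29) in vehicle and 0.81 (0.54 to 1.08) in fibril livers, a difference of 1.57 (1.04 to 2.10). Fibril livers were higher 1.57-fold without training (log2 ratio 0.65, 0.30 to 1.02) and 4.67-fold with it (2.22, 1.83 to 2.66), the latter at rank 31 from the top among 12180 genes. The amyloidosis term, 1.41 (SE 0.36), had an adjusted p of 0.082 in edgeR and passed with DESeq2 (adjusted p = 0.017), with limma-voom (adjusted p = 0.039), without robust estimation (adjusted p = 0.049) and without the filter on low counts (adjusted p = 2.1e-08).

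Inhba (ENSMUSG00000041324, chr13:16011851-16027211), the activin A subunit, had the lowest counts of the members. It had 33, 25, 51 and 20 counts in the same order, or 1.4, 1.03, 1.73 and 0.827 CPM. Only FS (1.29 to 2.27 CPM) and FI (0.505 to 1.28 CPM) had separate intervals, with a log2 ratio of −1.05 (−1.89 to −0.29) for FI versus FS. In the other 3 contrasts no difference was detectable at this depth, and neither term of the model passed (IT −0.75, SE 0.37, adjusted p = 0.39).

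**Figure D2:**
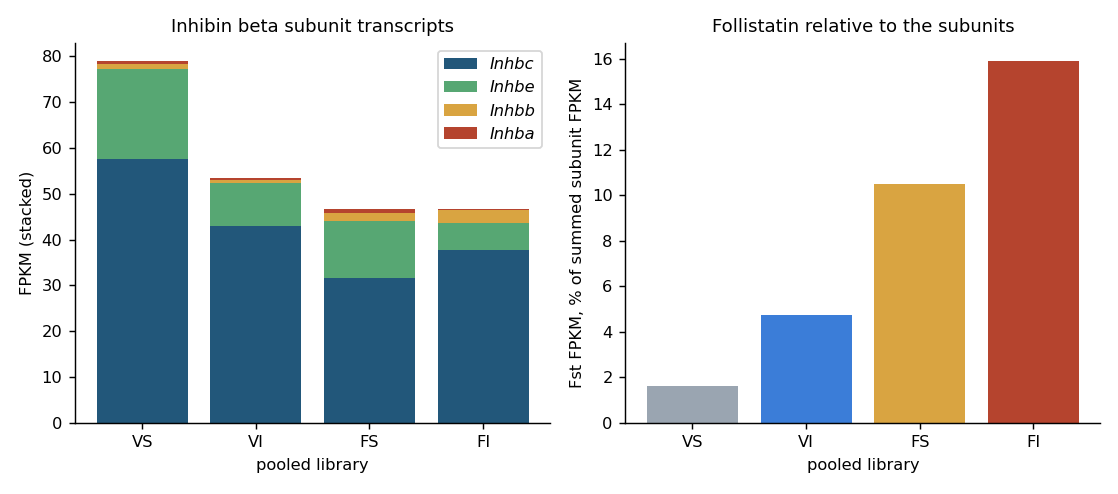
Stacked FPKM of Inhbc, Inhbe, Inhbb and Inhba (left, y axis in FPKM) and Fst FPKM as a percentage of the summed subunit FPKM (right, y axis in percent) in the VS, VI, FS and FI pooled libraries (x axis), with no error bars since each group is 1 library. The sum is highest in VS (79.1 FPKM), and the Fst percentage climbs from 1.62% in VS to 15.9% in FI.

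The summed transcripts of the inhibin beta subunits were lower in the other libraries than in VS, and the Fst transcript was higher. Summed FPKM of the 4 subunits was 79.1, 53.5, 46.6 and 46.8 from VS through VI and FS to FI. Inhbc made up 72.8%, 80.3%, 67.8% and 80.8% of this sum, and Inhbe 25.1%, 17.7%, 26.8% and 12.6%. Inhbc was thus the larger of the hepatocyte subunits in all libraries, by 2.9-fold (VS), 4.54-fold (VI), 2.53-fold (FS) and 6.41-fold (FI), and the trained libraries had the higher ratio in both backgrounds. The share of Inhbb was 1.26%, 1.08%, 3.41% and 5.67%. Fst amounted to 1.62%, 4.73%, 10.5% and 15.9% of the summed subunit FPKM. These are ratios of transcripts and say nothing of secreted protein, or of which subunits follistatin binds. Most of the sum was Inhbc and Inhbe.

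Ahsg (ENSMUSG00000022868, chr16:22892042-22899438) and Fetub (ENSMUSG00000022871, chr16:22918382-22939766), neighbours 18943 bases apart, had the narrowest ranges over the 4 libraries, followed by Gdf15. Ahsg was among the 6 most abundant transcripts in each library and took 1.27% to 1.45% of counts. It stood at 13600, 12800, 14200 and 14100 CPM in VS, VI, FS and FI, so the highest library exceeded the lowest 1.11-fold. Fetub was at 735, 718, 673 and 661 CPM, also a 1.11-fold range, with both fibril libraries below both vehicle libraries. Although counting error is small at this depth and some intervals excluded 0, all ratios of both genes lay between −0.13 and 0.14 on the log2 scale. Small ratios of Ahsg depend on the scaling: FI versus FS was −0.01 with TMM, 0 with DESeq2 size factors and −0.08 with total counts. Of their 4 additive terms 0 passed in edgeR, DESeq2 or limma-voom, and 0 had an unadjusted p under 0.05 in edgeR (Ahsg with amyloidosis 0.10, SE 0.16, adjusted p = 0.78, and Fetub −0.13, SE 0.13, adjusted p = 0.61).

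Lect2 (ENSMUSG00000021539, chr13:56542460-56548538) fell with amyloidosis and was lower in each trained library. From VS to VI, FS and FI it had 2694, 2049, 2104 and 1426 counts, or 114 (110 to 118), 84.1 (80.5 to 87.8), 71.3 (68.3 to 74.4) and 58.9 (55.9 to 62.1) CPM. The order was VS, VI, FS, FI with separate intervals throughout. The log2 ratio was −0.68 (−0.76 to −0.60) for FS versus VS, −0.51 (−0.61 to −0.41) for FI versus VI, −0.44 (−0.52 to −0.36) for VI versus VS and −0.27 (−0.37 to −0.18) for FI versus FS. The amyloidosis term was −0.60 (SE 0.11, adjusted p = 0.022), which did not hold with this factor fitted alone (adjusted p = 0.23), and the IT term of −0.36 (SE 0.11, adjusted p = 0.2) did not pass. FI was at 0.517 of VS. Of 3 described receptors 2 were expressed. Met did not pass the test (105, 90.4, 92 and 71 CPM in VS, VI, FS and FI; amyloidosis −0.27, SE 0.11, adjusted p = 0.21), and neither did Tie1 (13.8, 12.1, 9.04 and 13.3 CPM; amyloidosis −0.24, SE 0.20, adjusted p = 0.53).

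**Figure D3:**
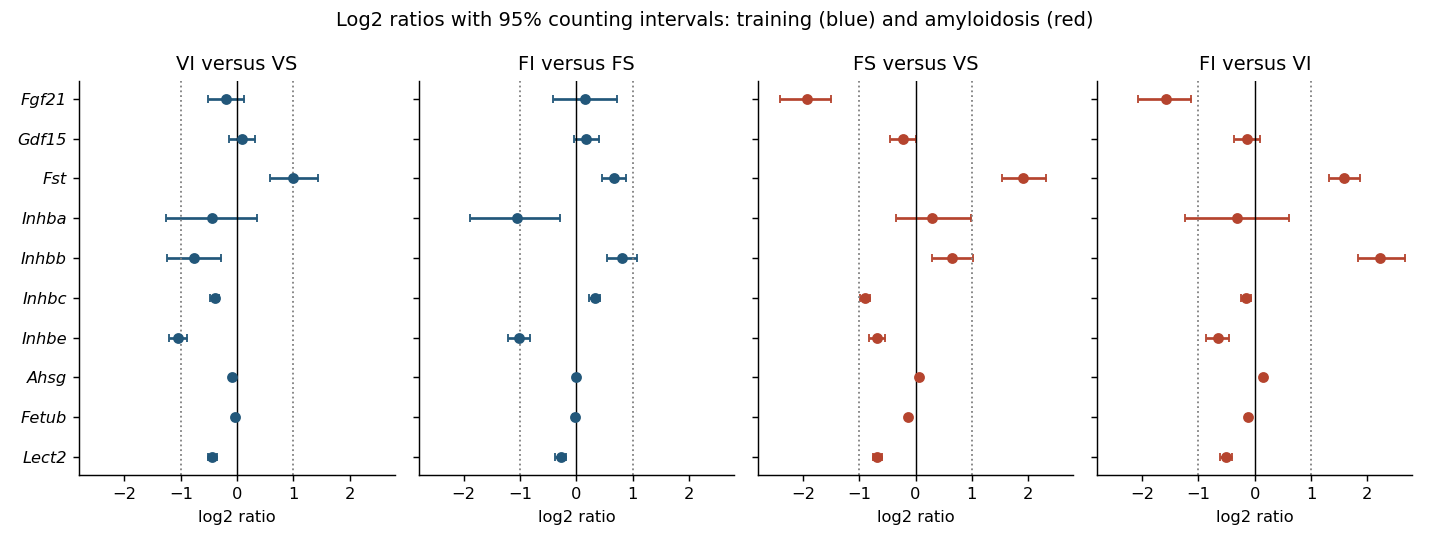
Log2 ratios (x axis) of the 10 genes (y axis) in 4 panels, VI versus VS and FI versus FS for training (blue) and FS versus VS and FI versus VI for amyloidosis (red). Whiskers are exact conditional binomial 95% counting intervals and dotted lines mark 2-fold; Fst is right of 0 in all panels, Inhbe and Lect2 are left of 0 in all, and Fgf21 is past 2-fold only in the amyloidosis panels.

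The question of what training does to these transcripts in mice without amyloid is addressed by VI versus VS. Fst was higher and Inhbe lower by more than 2-fold, which makes 2 of 10 members against 3.44% of 12180 genes with at least 1 CPM in a library. Fst stood at the threshold itself, with a log2 ratio of 1, and fell below it when libraries were scaled by total counts, which left 1 member. The median ratio of the members was −0.30, beside 0.004 over all genes. For 7 of the 10 members the counting interval excluded 0, among them the abundant Ahsg (−0.09) and Fetub (−0.03), whose counting error is small. The same share over all genes was not computed.

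In fibril livers, FI versus FS, the members past 2-fold were Inhbe and Inhba, both lower, 2 of 10 against 4.26% of genes. Training and the lower amyloid load that the study reported with it cannot be told apart in this contrast. Inhba passed on 20 and 51 counts and dropped out under a filter at 5 CPM. The members' median was 0.07, beside 0 for all genes. Over both backgrounds, the additive model called 1 of 10 members with IT (Inhbe, lower) against 1.48% of 11760 genes tested, 90 higher and 84 lower. At an unadjusted p under 0.05 there were 3 members, Inhbe, Fst and Lect2, against 1726 of the 11760 genes.

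**Figure D4:**
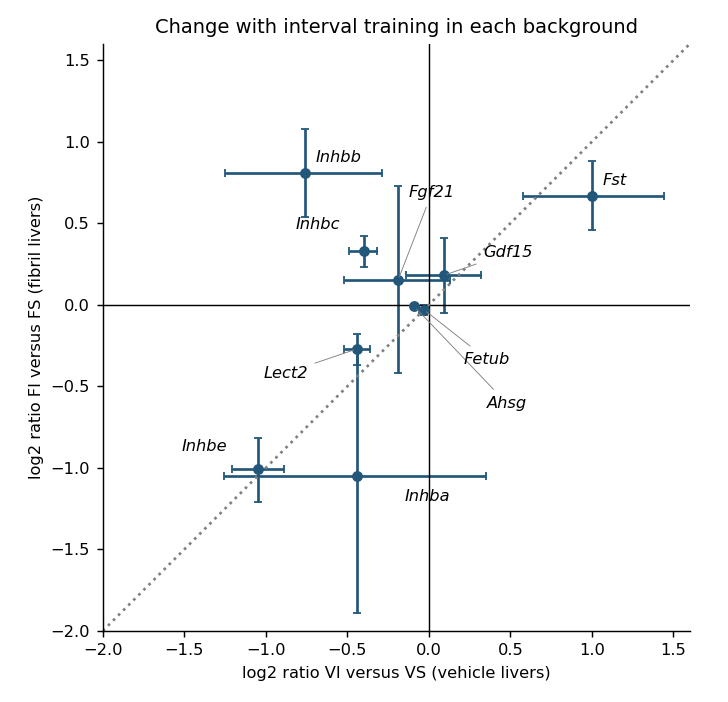
Log2 IT ratio in fibril livers (FI versus FS, y axis) against that in vehicle livers (VI versus VS, x axis) for the 10 genes, with 95% counting intervals on both axes and a dotted line of equality. Inhbe (−1.05 and −1.01) and Fst (1 and 0.67) lie near the line, and Inhbb (−0.76 and 0.81) and Inhbc (−0.40 and 0.33) lie in the upper left quadrant.

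The comparisons of fibril with vehicle livers ask how amyloidosis bears on the same genes. By the study's report trained fibril mice had less liver amyloid, whereas the additive model gives FS and FI the same amyloidosis term. In sedentary livers, FS versus VS, Fst was higher and Fgf21 lower by more than 2-fold, 2 of 10 members against 5.78% of genes. In trained livers, FI versus VI, Fst and Inhbb were higher and Fgf21 lower, 3 of 10 against 4.54% of genes. The members' median was −0.18 in the first and −0.15 in the second, beside 0.02 and 0.01 over all genes. The additive model called 4 of 10 members with amyloidosis against 4.97% of genes: Fst higher, and Fgf21, Inhbe and Lect2 lower. At an unadjusted p under 0.05 there were 6, with Inhbb and Inhbc added, against 2512 of the 11760 genes tested. The VS library enters both of the contrasts against it, as FI enters both of its own, so values of such contrasts stand side by side and are not independent.

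Genes that control Fgf21 or respond with it were described next. The edgeR calls in this and the following gene lists are those of the additive model, and with 1 factor fitted alone edgeR called 0 genes of these lists, with 0 to 15 a list at an unadjusted p under 0.05. Of 16 other targets of PPAR alpha, through which fasting induces Fgf21, 15 were below 0 in FS versus VS (median −0.78, beside 0.02 for all genes) and 5 were past 2-fold lower. In FI versus VI, 11 were below 0 (median −0.23) and 0 were past 2-fold. Fgf21 itself was past 2-fold lower in both. In FI versus FS, 15 of the targets were above 0 (median 0.33, beside 0 for all genes) and 4 were past 2-fold higher, while the ratio of Fgf21 was 0.15. Pdk4, which spares glucose by shutting pyruvate dehydrogenase, was at 26, 51, 5.79 and 44.5 CPM in VS, VI, FS and FI, and Acot1, an acyl-CoA thioesterase, at 342, 361, 83.1 and 297 CPM. Acot2, its close paralog, was at 54.5, 39.3, 15.6 and 21.2 CPM, and reads could be split between both. With amyloidosis 5 of the 16 fell by edgeR's test, 6 by DESeq2's and 5 by limma-voom. Among those in edgeR were Acot2 (−1.35, SE 0.22, adjusted p = 0.02), Ehhadh, Slc25a20 and Vnn1. With IT 0 of the 16 passed in edgeR, 4 had an unadjusted p under 0.05, and 2 passed in DESeq2 and in limma-voom. Ppara was at 81.2, 80.5, 61.6 and 79 CPM in VS, VI, FS and FI (amyloidosis −0.22, SE 0.13, adjusted p = 0.37).

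**Figure D5:**
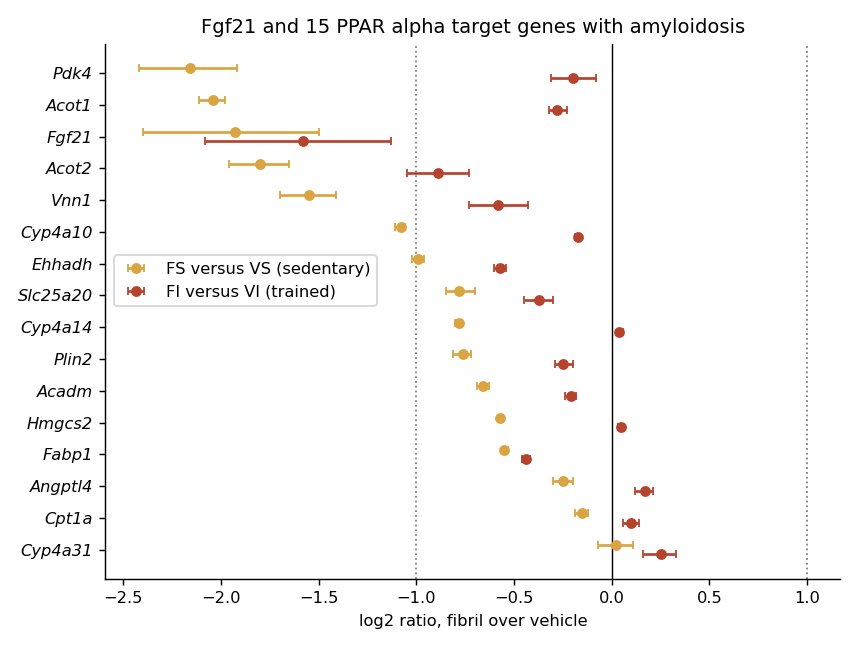
Log2 ratios of fibril over vehicle livers (x axis) for Fgf21 and 15 of the 16 PPAR alpha target genes (y axis; 1 is not shown), without training (FS versus VS, yellow) and with training (FI versus VI, red), with 95% counting intervals and dotted lines at 2-fold. Of the targets shown 5 are past 2-fold lower without training and 0 with it, and Fgf21 (−1.93 and −1.58) is so in both.

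Of 12 expressed ATF4-pathway genes in a list of 18, 11 were above 0 in FS versus VS and in FI versus VI (medians 0.29 and 0.26), in the direction opposite to Fgf21 and Inhbe. With amyloidosis 3 of the 11 tested passed in edgeR, all higher, and 3 each in DESeq2 and limma-voom. Ddit4, an mTORC1 inhibitor, was at 3.6, 15.1, 55.3 and 175 CPM in VS, VI, FS and FI (amyloidosis 3.70, SE 0.15, adjusted p = 2e-05), Chac1, a glutathione-degrading enzyme, at 3.3, 4.64, 8.1 and 8.64 CPM (1.08, SE 0.20, adjusted p = 0.022), and Trib3, a pseudokinase, at 6.94, 4.27, 16.5 and 7.73 CPM (1.06, SE 0.18, adjusted p = 0.015). The transcript of Atf4 itself was at 106, 124, 116 and 101 CPM.

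Among 17 transcription factors and regulators described for Fgf21 and Gdf15, 2 passed with IT and 1 with amyloidosis. Nr1d1, a clock repressor, fell with IT (30, 7.1, 49 and 7.19 CPM in VS, VI, FS and FI; −2.43, SE 0.18, adjusted p = 0.0012) and Nr4a1, an immediate early nuclear receptor, rose (1.91, 5.13, 2.51 and 7.23 CPM; 1.48, SE 0.22, adjusted p = 0.023). Nr1d1 was lower in both trained libraries, as Inhbe was, and its part in the Inhbe values was not tested. Xbp1, of the unfolded protein response, rose with amyloidosis (154, 140, 253 and 199 CPM; 0.61, SE 0.12, adjusted p = 0.028). Egr1, an immediate early gene, was at 56.5, 31.4, 56 and 44.2 CPM and did not pass. Of the 8 listed receptor and processing genes for FGF21 and GDF15, 5 were expressed, Fgfr4 (55.3 to 63.8 CPM), Fgfr2 (29 to 33.7), Fgfr3 (23.1 to 36.1), Klb (23.6 to 28.2) and Fgfr1 (2.41 to 4.13). None was past 2-fold in a contrast and 0 passed in edgeR, DESeq2 or limma-voom, with 1 at an unadjusted p under 0.05 for IT. Gfral, the GDF15 receptor of the brainstem, had a count of 0 in all libraries.

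Transcripts of the receiving side of activin signalling came next. Of 15 receptors of the TGF-beta family, 11 were expressed and 0 were past 2-fold in any contrast. Among receptors with at least 5 CPM in a library, the widest ratios were those of Acvr2a, an activin type II receptor (13.6, 19.7, 15.3 and 16.1 CPM in VS, VI, FS and FI), Tgfbr1 (16.1, 22.9, 21.4 and 26.2 CPM) and Tgfbr2 (11.9, 11, 15.2 and 10.8 CPM). With either factor 0 of the 11 passed in edgeR, DESeq2 or limma-voom, and 1 had an unadjusted p under 0.05 with IT and 0 with amyloidosis. Of 12 Smad proteins and their regulators, Skil, a repressor of Smad signalling, rose with amyloidosis in edgeR (13.7, 18.2, 20.7 and 27.3 CPM; 0.59, SE 0.13, adjusted p = 0.042), while DESeq2 called 0 and limma-voom 2 of the 12. Smad9 was at 9.44, 15.7, 6.4 and 9.63 CPM and Smad6, an inhibitory Smad, at 10.7, 8.74, 7.38 and 11.7 CPM, and neither passed.

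Of 12 tested Smad target genes, 3 rose with amyloidosis in edgeR, 0 in DESeq2 and 2 in limma-voom. Ccn2, a matricellular growth factor, was at 2.67, 4.19, 5.11 and 8.93 CPM in VS, VI, FS and FI (1.02, SE 0.20, adjusted p = 0.03), in the same order as Fst. Skil, which is on both lists, was also among the 3. Hamp, the iron hormone hepcidin, was at 740, 1260, 944 and 1400 CPM and did not pass (IT 0.67, SE 0.14, adjusted p = 0.06). Of 14 other antagonists of the family 7 were expressed, and 1 was past 2-fold higher in VI versus VS and in FS versus VS: Bmper, a BMP-binding protein, at 2.24, 7.27, 7.99 and 8.8 CPM (amyloidosis 0.96, SE 0.35, adjusted p = 0.18). Chrd, a BMP antagonist, was at 8.94, 7.59, 10.9 and 10.8 CPM, within 2-fold in each contrast. In edgeR, DESeq2 and limma-voom 0 of the 7 passed, with 2 at an unadjusted p under 0.05 for amyloidosis. Of 24 genes listed as other ligands, with the protease gene Bmp1 among them, 9 were expressed. By any of these tools 0 of the 8 tested passed, and 1 had an unadjusted p under 0.05 (amyloidosis). Gdf2, Gdf10 and Bmp2 differed by at most 0.57, 0.45 and 0.35 on the log2 scale in any contrast.

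The plasma proteins were set beside the acute phase, since fetuin-A is known as a negative acute phase protein. All 20 positive acute phase genes were above 0 in FS versus VS (median 1.22), 13 of them past 2-fold, and 10 rose with amyloidosis in edgeR, 13 in DESeq2 and 17 in limma-voom. Lcn2 was at 6.35, 36.5, 367 and 549 CPM, Saa1 at 30, 155, 945 and 1800 CPM and Saa2 at 9.95, 51.1, 523 and 1160 CPM in VS, VI, FS and FI, where Saa1 and Saa2 are near-identical and can share reads. Of 11 negative acute phase genes, 3 were above 0 in FS versus VS (median −0.21) and 2 fell with amyloidosis, Serpina6, the corticosteroid carrier (1220, 735, 494 and 469 CPM; −0.99, SE 0.18, adjusted p = 0.022), and Igfals (157, 103, 83.3 and 77 CPM; −0.67, SE 0.14, adjusted p = 0.035). Trf, transferrin, fell with IT (129, 86.8, 111 and 59.1 CPM; −0.74, SE 0.13, adjusted p = 0.031). Among the other secreted cystatin relatives, Kng1 was at 2480 to 3290 CPM, Kng2 at 415 to 510 and Cst3 at 152 to 170. Of the 6 genes of this list, which include Ahsg and Fetub themselves, 0 were past 2-fold in any contrast or called by edgeR, DESeq2 or limma-voom. At an unadjusted p under 0.05 there were 0.

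The genes whose profile over the 4 libraries was nearest to each member were found by the Euclidean distance between mean-centred log2 CPM values, among 8386 or 8387 genes with at least 5 CPM in each library. Nearest to Fst were Lpin1 (distance 0.089; 111, 241, 429 and 690 CPM in VS, VI, FS and FI), Tat (0.181) and Lrg1 (0.374). Nearest to Fgf21 were Mme (0.347; 47.3, 44.4, 16.8 and 17.2 CPM), Ces1d (0.375) and Acot3 (0.393). Inhbe had Gamt (0.215; 256, 141, 149 and 86.1 CPM), Tnfsf10 (0.232) and Hdhd3 (0.24) beside it, and Lect2 had Akr1c20 (0.0532; 109, 81.4, 70.2 and 55.2 CPM), Slc12a7 (0.09) and Phlda1 (0.0991). Inhbc was nearest to Mlxipl (0.0777; 292, 215, 163 and 207 CPM), Acad10 (0.0806) and Prnp (0.102), whereas Inhbb was nearest to Il1rn (0.217; 14.5, 7.55, 21.3 and 32.6 CPM), Atp11a (0.351) and Steap4 (0.523). For the flat genes, the names were Ncln, Fth1 and Acadsb for Gdf15, Cdk2ap1, Zfml and Slc39a1 for Ahsg, and Zfp212, 1110012L19Rik and Ctage5 for Fetub, at distances between 0.00518 and 0.0212. With 4 libraries a near profile is a description only.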

How the data were processed

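Livers of 16 mice were pooled by group into 4 libraries (VS, VI, FS and FI). The authors deposited 1 unnormalized read count per gene and library. The FPKM that the authors also deposited rest on the same counts: all 69722 values above 0 equal the count divided by gene length and total count (ratio 1). The submitters' processing notes name fastp 0.23.2, STAR 2.5, HTSeq 0.6.1 and mm10, without their order or role. Those sources do not say whether counting used strand. No member overlaps another listed gene, and coordinates are those of the count table.

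The counts were fitted in edgeR 4.0.16 under R 4.3.3, with DESeq2 1.42.0 and limma 3.58.1 as alternatives. Sequences were read and figures drawn with Python 3.11.15 and matplotlib 3.10.9. Libraries were scaled by TMM. Log2 ratios used a prior of 0.5 counts and exact conditional binomial (Clopper-Pearson) 95% intervals, CPM exact Poisson intervals, and differences between ratios the sum of reciprocal counts. Groups of 1 library allow no test, so the 12180 genes that reached 1 CPM in any library were classed as past 2-fold where the absolute log2 ratio exceeded 1. Separately, edgeR's robust quasi-likelihood test was applied to an additive model of amyloidosis and IT (3 coefficients, 1 residual degree of freedom) over the 11760 genes that reached 1 CPM in 2 or more libraries. P-values were adjusted over all of these by Benjamini-Hochberg, with 0.05 as threshold. SEs were taken from the quasi-likelihood F. The intervals and the model were tested on simulated data. For the model, only amyloidosis changed genes there, without interaction with IT, so departures from additivity were not covered.

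The members and lists were chosen with earlier results of these data known. Of 278 list symbols, 4 were matched by Ensembl identifier. All 10 members are named, up to 3 genes per list with at least 5 CPM and the largest absolute ratio in any contrast, and the 3 genes nearest in profile to each member with at least 5 CPM in a library. Called genes of a list and regulators or receptors that a member is known to use (Ppara, Atf4, Met, Tie1, Gfral, the FGF receptors, Xbp1) are named besides, and a few genes under these rules are not reported here. Promoters came from RefSeq on GRCm38.p6.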

Additional observations from a re-analysis of the deposited data

Results flagged for a closer look

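The IT ratio of Inhbb was opposite in the 2 backgrounds, beyond counting error in each: −0.76 on the log2 scale in vehicle livers (4.19 CPM in VS, 2.46 in VI) and 0.81 in fibril livers (6.61 CPM in FS, 11.6 in FI). The ratio in fibril minus that in vehicle livers was 1.57 (95% counting interval 1.04 to 2.10). With 1 pooled library per group the difference was not tested. FI and FS also differ in amyloid load by the study's report, which cannot be told apart from training.

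Inhbc also went down with IT in vehicle livers (−0.40, 112 CPM in VS and 84.9 in VI) and up in fibril livers (0.33, 60.6 CPM in FS and 76.2 in FI), a difference of 0.73 (0.61 to 0.86) that was not tested either. The neighbouring gene Inhbe had no such difference (0.03, −0.21 to 0.28).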

How the results depend on the processing

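No member's ratio past 2-fold and no called change turned its sign in any alternative run. Of 200 alternative values of the members' ratios, 179 stayed inside the counting interval and 21 moved, most of them of Ahsg, plus Fetub under total counts or FPKM and Fst and Inhbb on FPKM with a pseudocount of 1. The number of members past 2-fold moved to 1 in VI versus VS with total counts, to 4 (fold threshold of 1.5) and 1 (filter at 5 CPM) in FI versus FS, and to 6 (fold threshold of 1.5) in FS versus VS. Genes past 2-fold numbered 4035 (VI versus VS) and 4044 (FI versus FS) for IT and 4429 (FS versus VS) and 4197 (FI versus VI) for amyloidosis without a filter, and in the same order 144, 203, 353 and 229 with a filter at 5 CPM. Members called with IT were 2 with DESeq2 size factors in edgeR and 2 without a filter, where 740 genes were called, and with amyloidosis 1519 genes were called without a filter, where many rows have few counts. With each factor fitted alone in edgeR, IT called 0 genes and 0 members (650 genes and 1 member at an unadjusted p under 0.05, and 182 genes by DESeq2 and 242 by limma-voom in the additive design), and amyloidosis called 8 genes and 0 members (1617 genes and 5 members unadjusted, and 470 genes by DESeq2 and 706 by limma-voom in the additive design). By construction that fit counts the other factor as error, and the adjusted p was 0.9 for Inhbe with IT and, with amyloidosis, 0.071 for Fgf21, 0.17 for Fst, 0.62 for Inhbe and 0.23 for Lect2. In the additive design Inhbe with IT had adjusted p-values between 1.6e-10 and 0.0088. Inhbc with amyloidosis passed without a filter (adjusted p = 0.00095). No paired analysis was possible because each group is 1 pooled library without a replicate number, and leaving out a library would leave no residual degree of freedom. Depth limits Inhba most, at 20 to 51 counts.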

Other observations

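Of 22 other secreted liver proteins, 21 were expressed. Igfbp1, which binds insulin-like growth factors and is induced by fasting and stress, rose with both factors (154, 533, 585 and 1400 CPM in VS, VI, FS and FI; IT 1.52, SE 0.16, adjusted p = 0.0046; amyloidosis 1.65, SE 0.16, adjusted p = 0.0028), in the same order of libraries as Fst. Angptl8, a feeding-induced inhibitor of lipoprotein lipase, fell with both (54, 29.9, 38.5 and 15.2 CPM; IT −1.09, SE 0.14, adjusted p = 0.013; amyloidosis −0.72, SE 0.14, adjusted p = 0.027), in the same order of libraries as Inhbe. Manf, an ER stress-inducible secreted protein, rose with amyloidosis (43, 54, 193 and 110 CPM; 1.59, SE 0.28, adjusted p = 0.047).

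Fgl1 was at 545, 1330, 1800 and 1530 CPM and did not pass (amyloidosis 0.95, SE 0.40, adjusted p = 0.27). In this list edgeR called 2 of 21 genes with IT and 3 with amyloidosis in the additive model, 0 with 1 factor fitted alone (4 and 2 at an unadjusted p under 0.05), DESeq2 3 and 2, and limma-voom 3 and 3. The median ratio was −0.19 in FS versus VS and −0.01 in FI versus VI, beside 0.02 and 0.01 over all genes.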
